A study of Rattus norvegicus with 6 samples.

Results

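The transcripts of 3 smooth muscle genes, Acta2, Tagln and Des, were examined in RNA-seq libraries of penile cavernous tissue from rats. They were the 3 of 23091 genes listed in the deposited files that carry the Ensembl identifiers ENSRNOG00000058039 (Acta2), ENSRNOG00000017628 (Tagln) and ENSRNOG00000019810 (Des). The Norm group was 3 Wistar-Kyoto rats, the strain with normal blood pressure, and the SHR group was 3 spontaneously hypertensive rats, an inbred strain whose blood pressure rises without treatment. Rats of both groups were 10 weeks old, and the study describes drug and vehicle injections for a rescue experiment only. Its abstract places tissue collection after a test of erectile function. That test used pentobarbital anesthesia, a heparinized needle in the corpus cavernosum and electrical stimulation of the cavernous nerve. Each library is taken here as 1 rat. The labels name the tissue as penile cavernous tissue, while the study describes the outer membrane of the urethra once as the source of the RNA and once as removed before extraction. The comparison asked whether the messengers of these 3 genes differ in amount between hypertensive and normotensive rats. In tissue sections, the study stained smooth muscle alpha-actin protein and smooth muscle against collagen, and reported lower values of both in the SHR group. Such staining does not measure messengers.

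The corpus cavernosum is a sponge of blood spaces whose walls are bundles of smooth muscle. This muscle is contracted in the flaccid penis, and its relaxation by nitric oxide and cGMP lets blood enter. Acta2 encodes smooth muscle alpha-actin (α-SMA), the actin of the thin filaments that myosin pulls on. Tagln encodes transgelin (SM22-alpha), a small protein that binds these actin filaments. Des encodes desmin, the intermediate filament that ties dense bodies and the cell membrane together, and it is expressed in skeletal and cardiac muscle as well as in smooth muscle. Acta2 and Tagln are classic targets of serum response factor and its partner myocardin, which act through a DNA element called the CArG box.

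The identifiers were checked against the values before the names were used. The length that a count and its FPKM (fragments scaled to gene length and library size) imply was 1621 bases for Acta2 in every library, between 1106 and 1109 bases for Tagln and between 2173 and 2175 bases for Des. This is the known order of these transcripts, with Tagln the shortest and Des the longest. All 3 genes were abundant. By mean FPKM over the 6 libraries, Acta2 was ranked 37, Tagln 39 and Des 196 of the 23091 genes. No other marker of smooth muscle or of another cell type could be looked up, because the identifiers are not paired with names in the files.

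The bases just before the start of the gene were read for Acta2 and Des, to show the letters next to the start. The sequences are those of RefSeq on GRCr8, 250 bases ending at the base before the annotated start, and the capitals mark stretches that match the CArG box with at most 1 mismatch. The sequence of Acta2 is on the minus strand at chr1:241172504-241172753, and that of Des on the plus strand at chr9:84299376-84299625.
Acta2: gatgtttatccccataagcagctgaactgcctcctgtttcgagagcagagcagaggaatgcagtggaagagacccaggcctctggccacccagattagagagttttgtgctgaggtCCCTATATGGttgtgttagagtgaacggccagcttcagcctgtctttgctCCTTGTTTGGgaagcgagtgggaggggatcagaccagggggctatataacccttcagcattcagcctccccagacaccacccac
Des: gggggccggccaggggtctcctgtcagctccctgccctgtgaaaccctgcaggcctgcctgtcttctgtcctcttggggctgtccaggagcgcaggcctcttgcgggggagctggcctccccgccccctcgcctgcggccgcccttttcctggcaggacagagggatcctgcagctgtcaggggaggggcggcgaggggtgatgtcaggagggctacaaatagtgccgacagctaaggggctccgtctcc

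The window of Acta2 held 2 such stretches, CCCTATATGG from 134 to 125 bases and CCTTGTTTGG from 84 to 75 bases before the start, and each had 1 mismatch. At least 1 stretch with up to 1 mismatch was present in 18.7% of the 33469 promoters of the same length, and at least 2 in 3.05%. The window of Des held none. Searched on both strands, the letters TATATA occurred in the window of Acta2, from 42 to 37 bases before the start, and in 5.45% of all promoters. The E-box letters CANNTG, the pattern bound by the myogenic basic helix-loop-helix factors, occurred once in each window as CAGCTG and were present in 65.5% of all promoters. The windows differed in base composition, with 54% G and C for Acta2 and 68.8% for Des, against a median of 51.2%. These matches are descriptions of the letters in the windows. Bases outside the windows were not searched, so a window without a match does not show that a gene lacks a CArG box.

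The libraries held between 16608927 and 20017845 counts, and the TMM factors that scale them to each other ranged from 0.927 to 1.06. Levels are given below as CPM (counts scaled to a common library size with these factors), which serve to compare rats for 1 gene, and as FPKM where genes are compared. The difference was tested with edgeR's quasi-likelihood test over the 13299 genes that passed its filter, all 3 genes among them. The call was an adjusted p under 0.05, by the method of Benjamini and Hochberg over these genes.

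All 3 transcripts had a lower mean in the SHR group, and none of the 3 was called. For comparison, 1.75% of all genes tested were called lower and 4.06% were called in either direction. At an unadjusted p under 0.05 in the same test, 1 of the 3 genes, Des, was lower in the SHR group, as were 9.87% of all genes. Des had the lowest level relative to the Norm group, at about 58% of it, and Acta2 and Tagln stood at over 80%. Fewer smooth muscle cells, less RNA per cell and a different share of other cells cannot be told apart in pieces of whole tissue. Des is also expressed in skeletal muscle, and the share of skeletal muscle in the pieces was not tested.

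**Figure D1:**
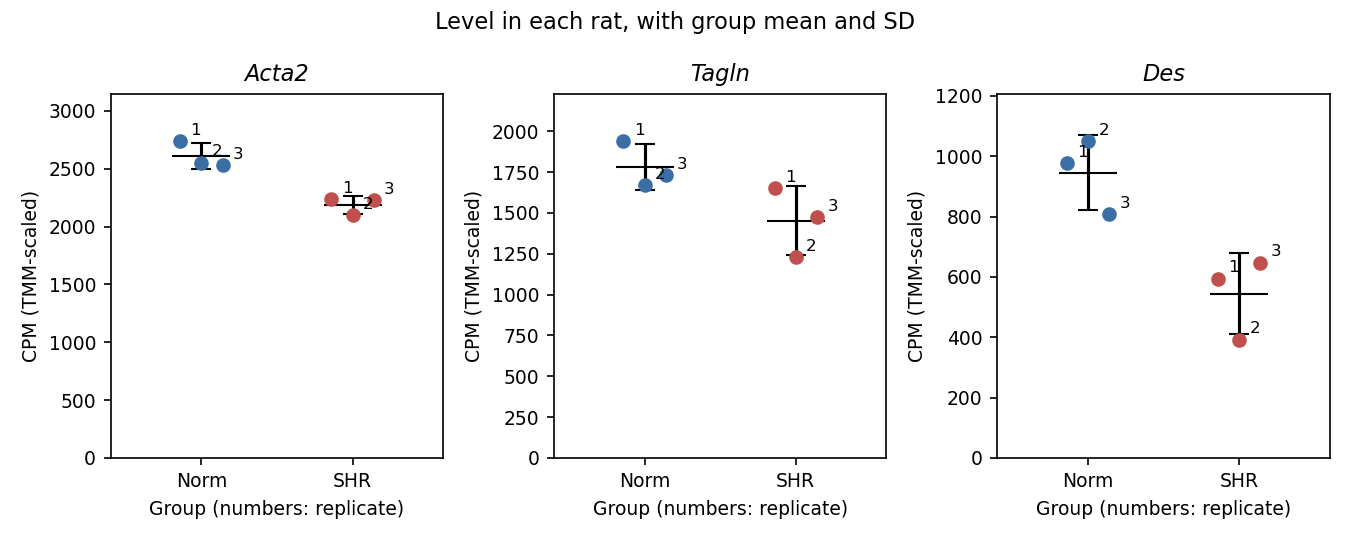
Level of Acta2, Tagln and Des in CPM (vertical axes, from 0) in each of the 3 Norm and 3 SHR rats, where points are rats numbered by replicate, and the long bar and whiskers are the group mean and SD. The SHR points lie below the Norm points for each gene, by the widest relative margin for Des (545 against 945 CPM in the group means), and SHR replicate 2 is the lowest point in each panel.

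Des, the desmin gene, stood at 976, 1050 and 808 CPM in Norm replicates 1, 2 and 3. In SHR replicates 1, 2 and 3 it stood at 594, 392 and 647 CPM. Every SHR rat was below every Norm rat, and the SHR rats were spread over a wider range than the gap between the groups. The Norm group had a mean of 945 ± 124 CPM and the SHR group one of 545 ± 135 CPM (SD, 3 rats each). edgeR gave a log2 fold change (SHR over Norm) of -0.79 ± 0.20 (standard error), with an unadjusted p of 0.00402 and an adjusted p of 0.0687. Its 95% interval ran from -1.26 to -0.33, which places the SHR level between 41.7% and 79.6% of the Norm level, with an estimate of 57.7%. Counting error was small beside the spread between rats, since the lowest count of Des, 7389 in SHR replicate 2, gives an exact Poisson 95% interval of 383 to 401 CPM. Such intervals cover counting error only.

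The call of Des depended on the tool. DESeq2, with an adjusted p of 0.00152, and limma's voomWithQualityWeights, with 0.0202, called it lower, as they did 4.02% and 5.89% of all genes. Over the settings that kept all 6 rats, its adjusted p ran from 0.00152 to 0.132 in edgeR, DESeq2 and limma.

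Acta2, the gene of α-SMA, stood at 2739, 2553 and 2531 CPM in the Norm rats, in the order of their replicate numbers. The SHR rats stood at 2237, 2100 and 2226 CPM in the same order. The groups did not overlap, and the rats within a group were close to each other. The means were 2608 ± 115 CPM for Norm and 2188 ± 76.4 CPM for SHR (SD, 3 rats each). The within-group SD of Acta2 on the log2 scale was 0.057, and 98.7% of all genes tested had a larger one, against a median of 0.22. These genes include many of low counts, and the share among abundant genes alone was not computed. edgeR gave a log2 fold change of -0.25 ± 0.13 (standard error) and an adjusted p of 0.313. The 95% interval ran from -0.55 to 0.043, or 68.3% to 103% of the Norm level. edgeR's error draws on the variation of other genes too, so this interval is not the spread of these rats alone. A reduction of Acta2 to below 68.3% is outside this interval. With DESeq2 the interval was -0.48 to -0.038, which excludes 0, and the adjusted p was 0.153. Acta2 has near-identical copies among the other actin genes, and how the authors' counting split shared reads is not known, so its level is uncertain to that extent.

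Tagln, the transgelin gene, stood at 1940, 1669 and 1730 CPM in Norm replicates 1, 2 and 3. It stood at 1652, 1230 and 1475 CPM in SHR replicates 1, 2 and 3. SHR replicate 1 was close to Norm replicate 2, and SHR replicate 2 was the lowest of all rats. The means were 1780 ± 142 CPM for Norm and 1452 ± 212 CPM for SHR (SD, 3 rats each). edgeR gave a log2 fold change of -0.29 ± 0.15 (standard error) and an adjusted p of 0.329. With limma's voomWithQualityWeights the log2 fold change of Tagln was -0.15, with an adjusted p of 0.513, and over the settings that kept all 6 rats its adjusted p ran from 0.240 to 0.513. The 95% interval in edgeR was -0.65 to 0.060, or 63.9% to 104% of the Norm level. With DESeq2 the interval was -0.59 to -0.0069, which excludes 0, and the adjusted p was 0.240.

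The separation of Tagln rested on the scaling between libraries. With TMM scaling the SHR and Norm rats did not overlap for any of the 3 genes, as was found in 12.8% of all genes tested with SHR lower and in 26.1% in either direction. With the library totals alone, or in FPKM, Tagln overlapped between the groups, since SHR replicate 1 took 0.171% of its library's counts and Norm replicate 2 took 0.158%. Acta2 and Des did not overlap under these scalings either, for which the share of all genes without overlap was not computed. On the log2 CPM scale each of the 3 genes had p = 0.1 in an exact permutation test (two-sided) over the rats, the smallest p that 3 against 3 allows.

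The fold changes were then set beside those of other abundant genes. Over all 13299 genes tested the median log2 fold change was -0.0049, and 50.7% were negative. In the 619 genes with a mean FPKM of at least 100 the median was -0.15 and 67.5% were negative, and in the 69 genes with a mean FPKM of at least 1000 it was -0.36 and 73.9% were negative. Acta2 and Tagln are among these 69 genes, of which 41 had a lower log2 fold change than Acta2 and 39 a lower one than Tagln. Both values lay above the median of these 69 genes. Des was among the 619 genes, 32 of which had a lower log2 fold change, and 3.84% of all genes tested had one.

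**Figure D2:**
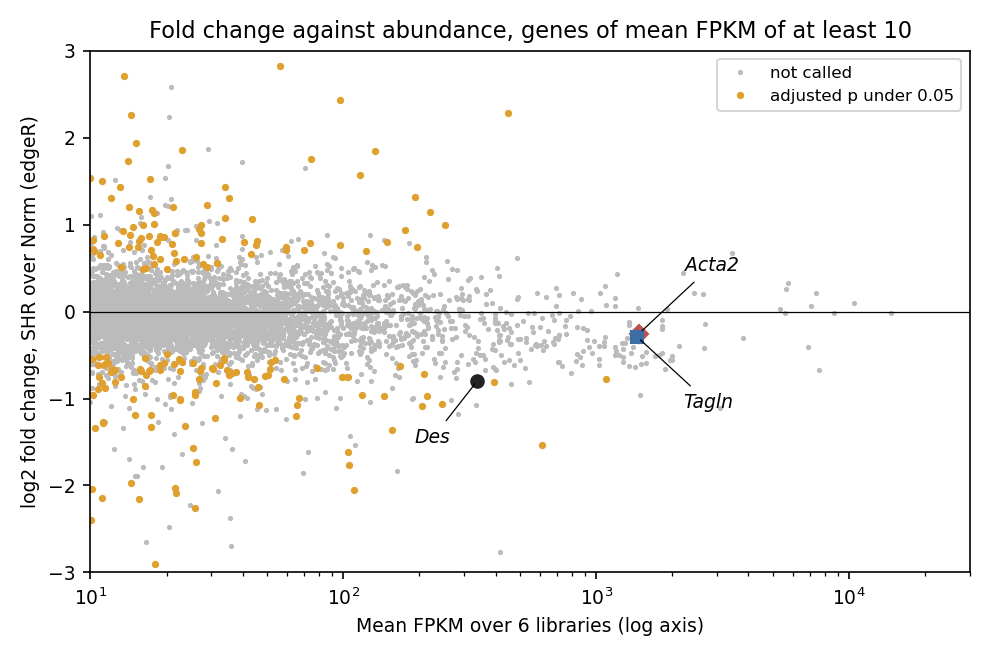
Log2 fold change, SHR over Norm, from edgeR (vertical axis) against mean FPKM over 6 libraries (horizontal axis, log scale) for the 5478 tested genes with a mean FPKM of at least 10 and a log2 fold change of at most 3 in size; 40 genes past that size are not drawn. Orange points are the genes with an adjusted p under 0.05, and the cloud of points shifts below 0 toward the right, where Acta2 (red) and Tagln (blue) lie within it and Des (black) lies near its lower edge.

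The levels of the 3 genes were compared with each other within each library in FPKM, which accounts for length. Acta2 stood at 1569 ± 84.4 FPKM in the Norm group and 1382 ± 55.8 FPKM in the SHR group, and Tagln at 1566 ± 126 and 1344 ± 208 FPKM (SD, 3 rats each). Des stood at 422 ± 31.5 and 257 ± 63.3 FPKM in the same order. Acta2 and Tagln could not be put in order, as Tagln was the higher in 2 of the 6 libraries and their mean difference in log2 FPKM was -0.028 ± 0.12 (SD, n = 6), with p = 0.656 in an exact two-sided permutation test of the signs. Des was the lowest of the 3 in all 6 libraries. Its mean difference in log2 FPKM was -2.18 ± 0.39 from Acta2 and -2.15 ± 0.35 from Tagln (SD, n = 6). These SDs pool the Norm and SHR rats, so they include any difference between the groups. Both mean differences had p = 0.0313 in the same exact test, the smallest it can give, and 0.0469 after adjustment over the 3 pairs.

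A ratio of one gene to another in the same rat is free of the scaling between libraries, and 3 such ratios were compared between the groups. Des amounted to 26.6%, 30.7% and 23.8% of the FPKM of Acta2 in the Norm rats, in replicate order, and in the SHR rats to 19.8%, 13.9% and 21.7%. The SHR rats were below the Norm rats, with SHR replicate 3 and Norm replicate 3 nearest to each other. On the log2 scale of CPM the ratio of Des to Acta2 was -1.47 ± 0.18 in the Norm group and -2.04 ± 0.34 among the SHR rats (SD, n = 3 each), a difference of -0.57 with p = 0.1 in an exact two-sided permutation test. The ratio of Des to Tagln was -0.92 ± 0.22 and -1.44 ± 0.23, a difference of -0.52 with p = 0.1 in the same exact test. The p was 0.15 for both after adjustment over the 3 ratios, and a test of 3 against 3 cannot pass 0.05. In FPKM, Des amounted to 25.6%, 32.1% and 23.8% of Tagln in the Norm rats and to 18.3%, 16.3% and 22.3% in the SHR rats, again without overlap.

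Tagln amounted to 104%, 95.6% and 99.97% of the FPKM of Acta2 in the Norm rats, in replicate order, and in the SHR rats to 108%, 85.7% and 97.2%. The Norm values lay inside the range of the SHR values. The difference between the groups in the log2 ratio was -0.047 with p = 0.8 in the exact two-sided permutation test, and it was 0.038 without SHR replicate 2.

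**Figure D3:**
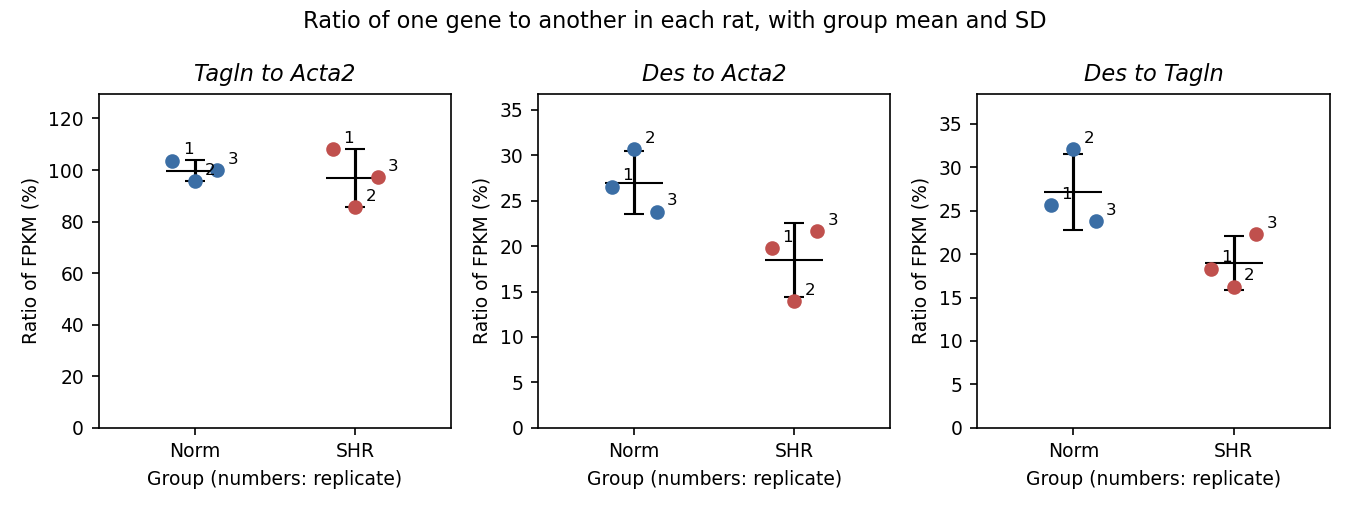
Ratio of the FPKM of one gene to another in percent (vertical axes, from 0) in each Norm and SHR rat, where points are rats numbered by replicate, and the long bar and whiskers are the group mean and SD. The ratio of Tagln to Acta2 overlaps between the groups, while both ratios of Des lie lower in the 3 SHR rats.

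SHR replicate 2 had the lowest level of all 3 genes among the 6 rats, and the order of the other rats differed from gene to gene. In CPM, Norm replicate 1 was the highest for Acta2 and Tagln, whereas in FPKM Norm replicate 3 was. Norm replicate 2 was the highest for Des on both scales. Among the SHR rats, replicate 1 was the highest for Acta2 and Tagln and replicate 3 for Des. Over all genes tested, SHR replicate 2 was the lowest of the 3 SHR libraries for 36.7%. Without this rat, the log2 fold change of Des was -0.60 with an adjusted p of 0.0987, and that of Tagln was -0.18 with 0.582, from edgeR. The 3 genes together took between 0.498% and 0.537% of all counts in the Norm libraries and between 0.380% and 0.465% in the SHR libraries.

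**Figure D4:**
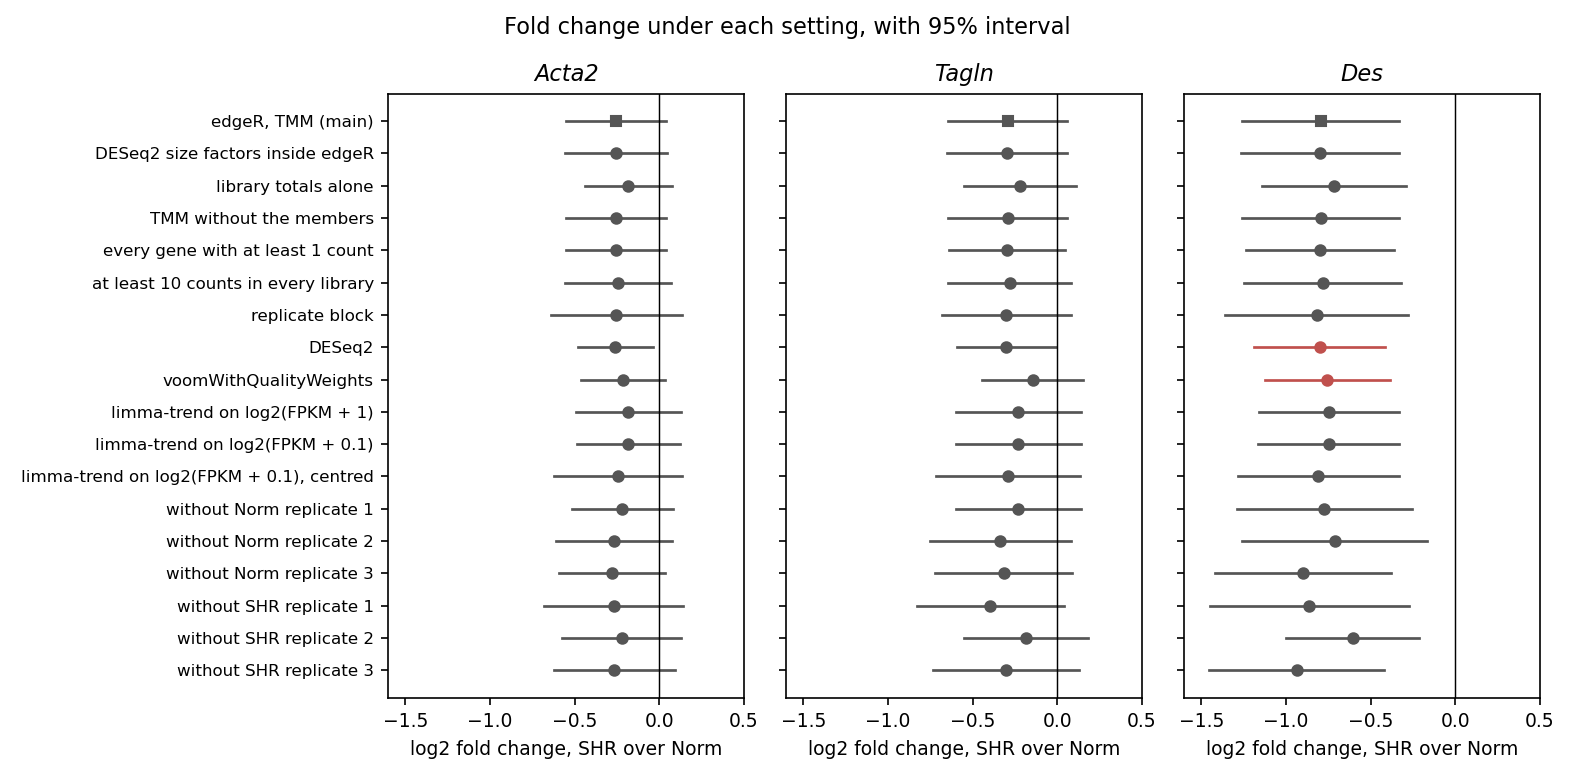
Log2 fold change, SHR over Norm (horizontal axes), of Acta2, Tagln and Des under each setting named on the vertical axis, with its 95% interval; the square is the main setting, and red marks an adjusted p under 0.05. All points lie below 0, and the intervals of Des exclude 0 under every setting drawn. The intervals of Acta2 and Tagln exclude 0 with DESeq2 alone. Only the Des values of DESeq2 and voomWithQualityWeights are red.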

How the data were processed

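The authors deposited 2 tables per library, whole-number counts per Ensembl gene, which are not normalized, and FPKM values, which divide by gene length and library size. RNA was extracted with TRIzol, and libraries were made with the TruSeq kit and sequenced on an Illumina platform. The submitters' processing notes name fastp 0.18.0, Bowtie2 2.2.8, HISAT2 2.1.0, StringTie 1.3 and RSEM. The genome build and annotation of the files are not given in the sources used here. In 31 cases a count of 0 had an FPKM above 0, so counts may be rounded estimates. Reads shared with near-identical actin genes were assigned by the authors' counting, so the level of Acta2 is uncertain to that extent.

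The group difference was tested on the counts by edgeR (version 4.0.16, under R 4.3.3) with TMM, filterByExpr, glmQLFit and glmQLFTest. Standard errors and 95% intervals were derived from its F statistic. Ratios used log2(CPM + 0.1). Alternatives used DESeq2 1.42.0, the tool of the study, and limma 3.58.1, and were recomputed on all genes. For FPKM, limma-trend was run on log2(FPKM + 1) and log2(FPKM + 0.1) for genes that reached an FPKM of 1 in 3 libraries or more, and a fold change on this scale understates that of low genes. Total counts were 16608927 to 20017845, at which 3 counts stand at 0.150 to 0.181 CPM. No library was a duplicate of another in its group, since pairs within a group differed by far more than counting error. Pairs of a Norm and an SHR library were not compared in this way.

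The members and gene lists were chosen with earlier results of these data known, and the names of the 3 identifiers came with that choice. The rule for genes to be named (the 3 members, genes of the smooth muscle and marker lists, the actin genes and the genes most like the members) reached only the 3 members, because no table pairs the identifiers with names. The lists and the ratio of Actg2 to Acta2 were not analysed here. RefSeq promoters were matched by symbol for 2 of the 3 genes, Acta2 and Des.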

Additional observations from a re-analysis of the deposited data

How the results depend on the processing

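Acta2, Tagln and Des had a negative log2 fold change in all 54 values under the alternatives, from -0.94 to -0.15, and the call was as in the main test in 52 of them. The exceptions were Des with DESeq2 (-0.80) and with voomWithQualityWeights (-0.76), where it was called, and the cause was not tested. The 54 values include the setting that also required a log2 fold change over 1 in size. That setting reuses the main fit, so it could change neither the values nor these calls. The value of Tagln was -0.15 with voomWithQualityWeights, against -0.29 in the main test. With 1 rat left out, the values ran from -0.28 to -0.22 for Acta2, from -0.39 to -0.18 for Tagln and from -0.94 to -0.60 for Des, whose adjusted p ran from 0.0899 to 0.185 in edgeR. The log2 ratio of Tagln to Acta2 differed between the groups by -0.129 to 0.038 with 1 rat left out, and the sign turned without SHR replicate 2. The ratios of Des kept their sign, at -0.69 to -0.37 against Acta2 and -0.64 to -0.39 against Tagln. With the replicate number as a block, Des had -0.82 and an adjusted p of 0.132 in edgeR, and 294 genes were called. The labels link these rats by number alone. The deviations of same-numbered rats from their groups were correlated across genes at -0.039, -0.15 and -0.12. Rats with different numbers were not compared in this way, so these values cannot decide whether same-numbered rats shared a batch.

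The number of genes called was 540, of which 233 (43.1%) were lower. It was 1256 with DESeq2, 1586 with voomWithQualityWeights and 345 with a log2 fold change over 1 in size required as well, and 161 to 632 with 1 rat left out, with 161 without SHR replicate 1, 191 without Norm replicate 2, 214 without Norm replicate 3 and 225 without SHR replicate 3. With library totals alone 166 of 505 (32.9%) were lower. TMM without the 3 members and FPKM with library medians subtracted were added after the data were seen. TMM without the muscle lists and the counts of the gene lists were not run, because they need gene names. Counting error at the lowest count of a library was 0.511% of the level for Acta2, 0.657% for Tagln and 1.16% for Des.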
